A study of Homo sapiens with 11 samples.

Results

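The comparison described here set the messenger RNA of HEK293T cells of knockout 2 against that of wild-type HEK293T cells. HEK293T is an established human line derived from embryonic kidney, in which the large T antigen of SV40 is expressed. The gene knocked out appears as CSAM in the labels and is known today as PCIF1. The libraries compared were chosen by assay and genotype alone: 4 of the 11 libraries of the series, which are 2 RNA libraries of knockout 2 and 2 of wild type. The 2 RNA libraries of knockout 1, a second knockout of the same gene in the same line, stood beside them to show which changes it lacks, and the 5 ribosome footprint libraries gave another readout. In the labels the wild-type RNA libraries have the background numbers 1 and 2, while both libraries of a knockout carry 1 number. Neither the clonal origin of knockout 2 nor separate cultures for its replicates are stated. The p-values therefore cover the spread between libraries and no more, and that spread may be technical.

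Most vertebrate messenger RNAs begin with a methylated guanosine cap, and where the first transcribed nucleotide is an adenosine, PCIF1 can add a methyl group to its N6 position. PCIF1 binds the tail of RNA polymerase II and acts on the capped 5′ end of the growing transcript. Reported roles of this mark include effects on RNA stability and on translation. RNA sequencing of a knockout measures the abundance that results, not the mark itself.

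The files list transcripts by UCSC-style identifiers with a listed length and a count, and none of the 182398 identifiers had an entry in the gene name tables used here (0 matched). Levels are therefore described by transcript, by listed length and by position in the table, and the level of PCIF1 itself and of any marker of the cell line was not analysed here. Rows with identical counts in all 11 libraries were merged into features, each placed at the table line of its first row, and a feature can overlap others of the same gene. Blocks of 20 consecutive lines serve as a rough count that is less inflated by such overlap. After merging, the libraries of knockout 2 held 46118849 and 44638751 counts, those of wild type 63551193 and 51327023, and those of knockout 1 40346318 and 49580593. Replicates were close: among the 44739 features with a mean of at least 1 CPM (counts scaled to a library size of 1000000 with TMM factors), the median difference between replicates was 0.14 on the log2 scale in knockout 2, 0.14 in wild type and 0.11 in knockout 1.

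RNA of knockout 2 differed from that of wild type in both directions, mostly by small amounts. Of 57719 features tested, 7100 (12.3%) differed from wild type (edgeR quasi-likelihood test, Benjamini-Hochberg adjusted p under 0.05). RNA was higher for 3407 features (5.90%), spread over 1308 of 8304 blocks, and lower for 3693 features (6.40%), spread over 1398 blocks. Only 89 blocks held calls in both directions. The called changes had a median size of 0.49 (log2), with medians of 0.45 among higher and -0.54 among lower features. Large changes leaned downward: on the fitted scale, more than 2-fold rises were found for 285 features and such falls for 795. In bulk RNA, fewer cells that make a transcript and less of it per cell cannot be told apart. A fit of the 4 libraries of knockout 2 and wild type alone called 5131 features, 2370 higher and 2761 lower, against 7100 in the fit of all 6 RNA libraries. The number of calls depended on the libraries: 4331 features were called without wild-type replicate 1, 4455 without replicate 1 of knockout 2 and 3369 without its replicate 2, and DESeq2 called 4311.

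One stretch of the table, the 2000 lines that end with line 87000, was lower in knockout 2 along most of its length. It contained 661 of the tested features (1.15%) and 399 of the lower calls (10.8%), and 167 of the lower calls over 2-fold (21.0%). Within it 399 features fell and 6 rose in knockout 2. Without the stretch, 6695 of 57058 features (11.7%) were called, with 3401 higher (5.96%) and 3294 lower (5.77%). Among changes over 2-fold outside it, 281 were higher and 628 lower, so the large changes leaned downward there too. The share of lower features among all calls was 52.0% with the stretch and 49.2% without it. The fit of the 4 libraries of knockout 2 and wild type alone called 4739 features outside the stretch, of which 50.1% were lower. Refitting all 6 RNA libraries with the stretch left out of the scaling and of the adjustment gave 6538 calls, 3248 higher and 3290 lower. Outside the stretch this share lay between 47.0% and 52.9% over the alternatives, at 52.7% with upper-quartile scaling and 52.9% without wild-type replicate 1, so neither direction prevailed under all of them. Outside the stretch, 3962 features were called without wild-type replicate 1, 4109 and 3024 without replicates 1 and 2 of knockout 2, and 3947 by DESeq2.

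**Figure D1:**
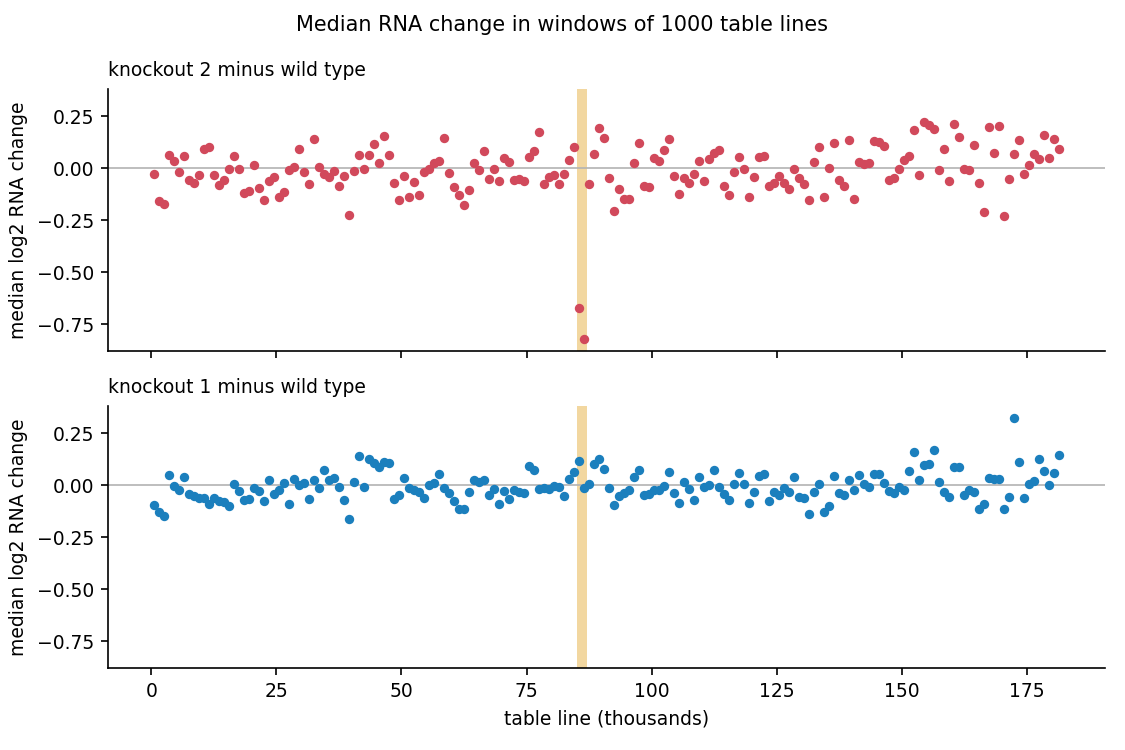
Median log2 RNA change (y axis) of knockout 2 against wild type (top) and of knockout 1 against wild type (bottom) in windows of 1000 table lines (x axis), with 1 feature per 20 lines and 182 windows of at least 20 features; the shaded band is the stretch that ends with line 87000. The 2 windows inside the band stand at -0.67 and -0.82 in knockout 2, while the other windows lie between -0.23 and 0.22.

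The stretch was chosen because of its low level in knockout 2, so its RNA values are given as a description. Its features summed to 8481 and 8433 CPM in the wild-type libraries and to 9037 and 8985 CPM in those of knockout 1. In knockout 2 they summed to 5996 and 5870 CPM. Both libraries of knockout 2 were thus below all 4 others, at 5933 CPM ± 89.2 (SD, n = 2) against 8457 ± 33.5 (SD, n = 2) in wild type, or 70.1% of the wild-type level (log2 ratio -0.51). The 6 possible splits of 4 libraries allow no exact permutation p below 0.333. The median feature of the stretch changed by more than the sum did, with a log2 change of -0.75 and quartiles of -1.06 and -0.37. The 192 features with a mean of at least 10 CPM had a median of -0.58, against -0.82 among the 333 features of 1 to 10 CPM, and 90.0% of all 661 had a fitted change below zero.

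The lower levels ran along the stretch rather than sitting in a few transcripts. With 1 feature per 20 lines, both knockout 2 libraries lay below both wild-type libraries for 88 of 98 features (89.8%), against 2421 of 8206 (29.5%) elsewhere in the table, where 9.87% of such features over the whole table were called lower. The stretch was chosen for this and the count is no support for it. Of these 98 features 79 fell and 1 rose. The count of features that fell in the stretch was 341 to 392 when each RNA library was left out in turn, and DESeq2 gave 360.

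**Figure D2:**
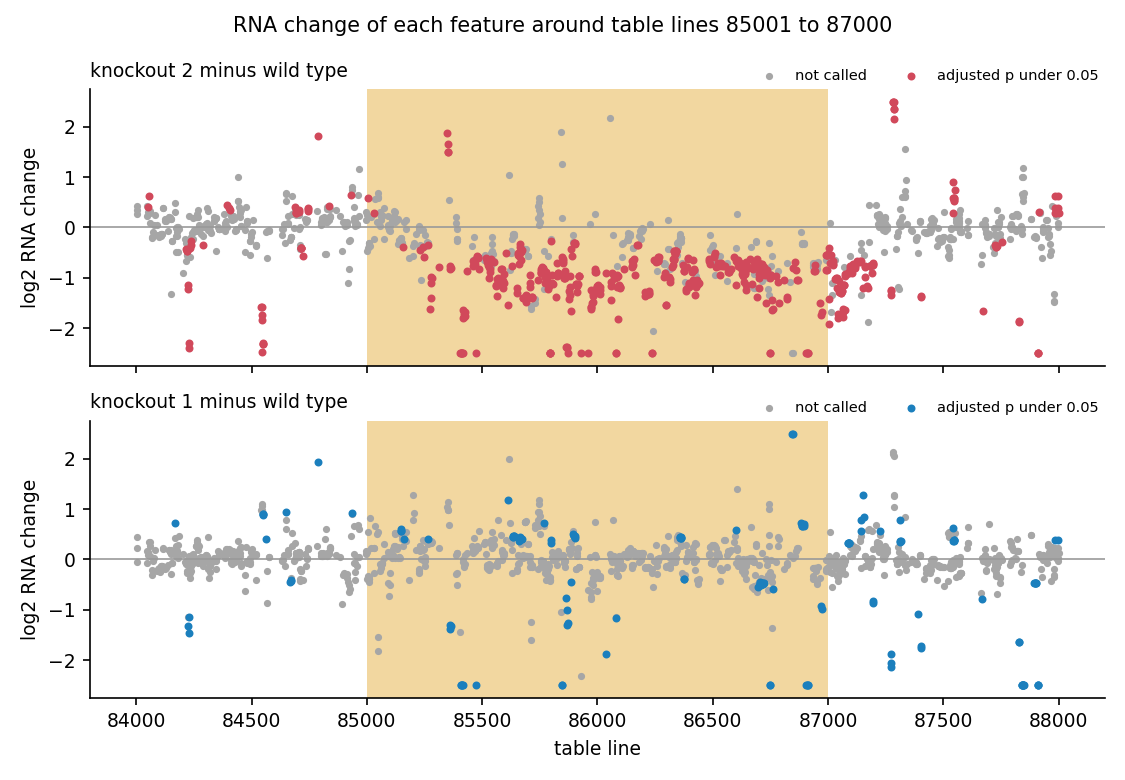
Log2 RNA change (y axis) of each of 1296 features against table line (x axis) in the 4000 lines that end with line 88000, with the stretch shaded, for knockout 2 against wild type (top) and knockout 1 against wild type (bottom); coloured points had an adjusted p under 0.05, and values beyond 2.5 are drawn at 2.5 (32 points in the top panel, 26 in the bottom). From line 85401 to line 87200, 96.9% of the points of the top panel lie below zero, while those of the bottom panel have a median of 0.00.

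The low levels did not begin and end with the 2000 lines. In bins of 100 lines, the first 400 lines of the stretch held 107 features, of which 14 fell and 6 rose, and those 6 were all the rises of the stretch. From line 85401 to line 87200, each of 18 bins had a median log2 change between -1.17 and -0.24. This run of 1800 lines, picked after seeing the values, held 645 features. In knockout 2, 458 of them (71.0%) fell, with a median log2 change of -0.82, and in knockout 1 44 rose and 40 fell, with a median of 0.00. The next bin, lines 87201 to 87300, had a median of 0.19, and the bin before the run, lines 85301 to 85400, had a median of -0.02. The edge was not sharp: lines 85201 to 85300 had a median of -0.36 with 9 of 27 features lower, and lines 84501 to 84600, before the stretch, had a median of -0.61 with 8 of 17 lower. Summed over the run, the level was 9024 and 9070 CPM in wild type, 9568 and 9555 CPM in knockout 1 and 5945 and 5826 CPM in knockout 2. Leaving out these lines instead of the stretch gave 6642 calls outside, 3407 higher and 3235 lower.

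Taken as a whole, the stretch did not show this change in knockout 1. The 661 features of the stretch had a median log2 change of 0.03 in knockout 1 against wild type. Of these, 81 were called (12.3%), 40 higher and 41 lower, where the comparison called 4.26% of all features, 2.18% higher and 2.08% lower. Parts of the stretch fell in knockout 1 too: lines 86701 to 86800 had a median of -0.40 there, with 14 of 41 features lower. In the stretch, 26 features were called lower in both knockouts without a difference between them that passed. Tested directly between the knockouts, 405 of the 661 features were called (edgeR, adjusted p under 0.05), with 60.7% of the 661 lower in knockout 2 and 4 features higher. Over all features this test called 6.54%, 3.53% lower and 3.01% higher. The comparisons of both knockouts share the wild-type libraries, and both comparisons of knockout 2 share its own. The stretch was chosen for its low level in knockout 2, so its RNA calls between the knockouts are a description and no support. Its features can also overlap.

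Ribosome footprints, RNA pieces that ribosomes protect from nuclease, were lower over the same stretch, in libraries that the RNA fit did not use. The 500 features of the stretch with enough footprint counts summed to 10352 CPM in the single wild-type library, to 10660 and 10506 CPM in knockout 1 and to 7087 and 7078 CPM in knockout 2. Knockout 2 stood at 66.9% of knockout 1 in footprints over these 500 features, and at 65.8% in RNA over all 661 features of the stretch. In footprints, 283 of the 500 features (56.6%) were lower in knockout 2 than in knockout 1 (edgeR, adjusted p under 0.05), with a median log2 change of -0.84. Over all 44410 features tested in footprints, 8.32% were called between the knockouts, 4.54% lower and 3.78% higher.

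**Figure D3:**
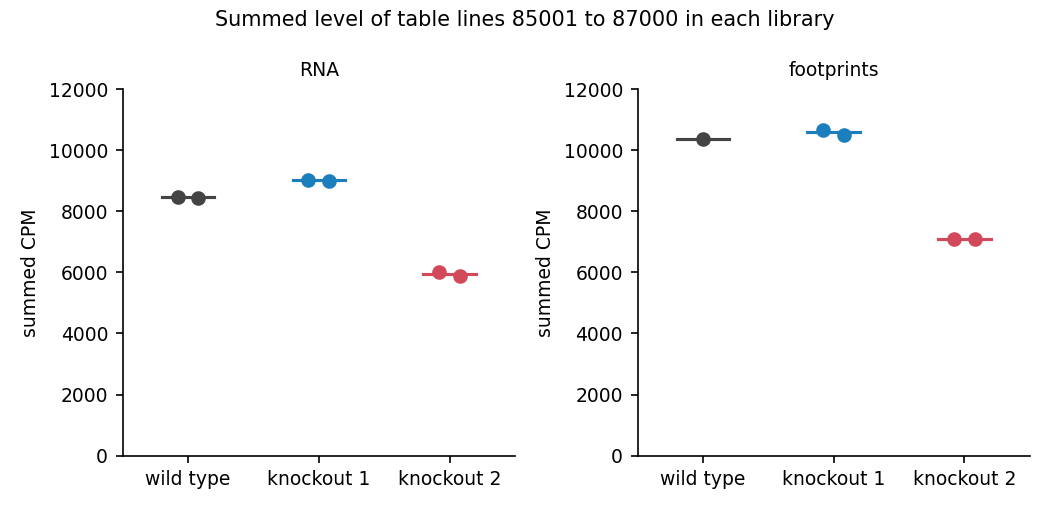
Summed CPM (y axis, from 0) of the features of the stretch in each RNA library (left, 661 features) and each footprint library (right, 500 features); points are libraries and lines are group means. The knockout 2 libraries lie at 5870 to 5996 CPM in RNA and 7078 to 7087 CPM in footprints, below every library of the other genotypes.

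Which changes knockout 1 lacks was decided by the test between the knockouts, not by whether knockout 1 missed the threshold. Of the 7100 features called in knockout 2, 2121 (29.9% of them, 3.67% of all tested) also differed from knockout 1 in the same direction (edgeR, adjusted p under 0.05 in both contrasts). Among these, 918 were higher (1.59% of all tested) and 1203 lower (2.08%). In knockout 1, 1943 of the 2121 were not called against wild type, 104 were called in the opposite direction, and 74 were called in the same direction with a smaller change. Without those 74, 2047 features remained (28.8% of those called in knockout 2), 312 of them in the stretch. A missed call in knockout 1 does not by itself show that it lacked the change. Among the 1943 not called, knockout 1 had the other sign or no change for 475 of 859 higher features. The same held for 543 of 1084 lower features, and the rest moved the same way as in knockout 2. The remaining calls of knockout 2 mostly leave the matter undecided: 3947 features (55.6%) were called in knockout 2 alone without a difference between the knockouts that passed the test. A further 1024 (14.4%) were called the same way in both knockouts without such a difference, and 8 changed more in knockout 1.

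The medians of the 2121 features describe values that chose them. The higher features had a median log2 change of 0.48 in knockout 2 and -0.02 in knockout 1, and the lower ones of -0.78 in knockout 2 and 0.00 in knockout 1. The undecided features lay between in knockout 1. Those higher in knockout 2 alone had medians of 0.43 and 0.22, and those lower in it alone of -0.46 and -0.23.

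The stretch that ends with line 87000 supplied 325 of the 1203 lower features that also differed from knockout 1 (27.0%). Outside it, 1796 features (3.15%) met both tests, 918 higher (1.61%) in 365 blocks and 878 lower (1.54%) in 348 blocks. With the stretch left out of the fit, 1735 features met both tests, 871 higher and 864 lower. In the main fit, the excess of lower features among the 2121 thus lay in the stretch. These counts rested on all libraries of both knockouts. Where the excess lay with a library left out, or by DESeq2, was not examined. The total of 2121 was 1034 and 829 without replicates 1 and 2 of knockout 1, 1382 and 1050 without those of knockout 2, and 1392 by DESeq2, and lower features prevailed in each case.

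Most of these features did not pass the footprint test, and those that did mostly changed in the direction of their RNA. Outside the stretch, 870 of the higher features were tested in footprints, and 259 of them (29.8%) were also higher in knockout 2 than in knockout 1 by the footprint test, with 15 lower. Of 685 lower features, 215 (31.4%) were lower in footprints and 1 was higher. Over all features tested in both assays outside the stretch, 3.82% were higher and 3.96% lower. The median footprint change of knockout 2 against knockout 1 was 0.26 for the higher and -0.32 for the lower features, against 0.00 over all of them. Against the single wild-type footprint library, 260 of the 870 were higher (29.9%) and 63 lower, and 155 of the 685 were lower (22.6%) and 13 higher, where 7.22% of all features outside the stretch were higher and 8.28% lower. The footprint test called 3696 features in all, 1608 without footprint replicate 1 of knockout 1, 1557 and 2205 without replicates 1 and 2 of knockout 2, and 706 by DESeq2.

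**Figure D4:**
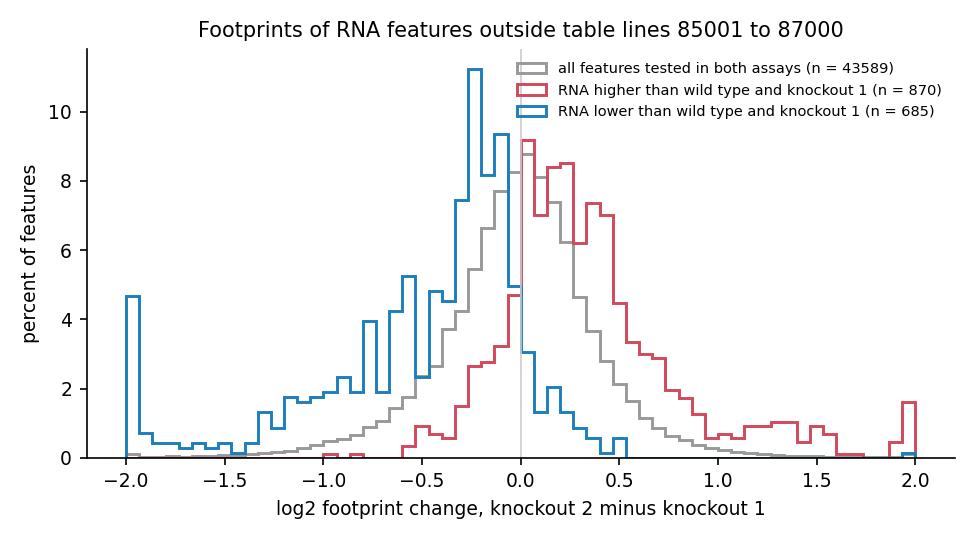
Distribution of the log2 footprint change of knockout 2 against knockout 1 (x axis, values beyond 2 drawn at 2) as percent of features (y axis), outside the stretch, for all 43589 features tested in both assays and for those whose RNA in knockout 2 was higher (870) or lower (685) than in both wild type and knockout 1. The higher set has a median of 0.26 and the lower set of -0.32.

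The 1024 features called the same way in both knockouts, 476 higher and 548 lower, had these medians in the knockouts. The higher ones stood at 0.49 in knockout 2 and 0.46 in knockout 1, and the lower ones at -0.60 and -0.54. Both comparisons use the same wild-type libraries. In footprints, 108 of 458 higher features (23.6%) were higher and 108 of 436 lower features (24.8%) were lower in knockout 2 than in the single wild-type library. Opposite calls were made for 40 of the higher and 8 of the lower features. Over all features tested in footprints, 15.8% were called in that comparison, 7.14% higher and 8.67% lower.

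Some transcripts were almost absent from knockout 2. The rule was at least 1 CPM in each wild-type library and no more than 3 counts summed over the knockout 2 libraries. Of the 57719 features tested, 27 in 11 blocks met it, and 14 of them had 0 counts. Their wild-type levels were low, between 1.13 and 6.13 CPM. In knockout 1, 9 of them, in 4 blocks, stood at 1 CPM or more in each library, while 11 features in 3 blocks were also near absent there. The other features lay between these limits in knockout 1. Those 4 blocks lay at lines 129057 to 129061 and 163033 to 163046, and lines so near each other can belong to 1 gene. At line 163033 knockout 1 was below wild type, with 1.54 and 1.38 CPM against 5.77 and 6.13 CPM. Lines 163043 to 163046 reached 1.44 and 1.46 CPM in knockout 1 against 3.62 and 2.47 CPM in wild type. The group at lines 129057 to 129060 reached 3.21 and 2.32 CPM in wild type, 3.90 and 5.05 CPM in knockout 1 and 0.067 and 0 CPM in knockout 2. Its footprints reached 3.27 CPM in wild type, 5.52 and 3.92 CPM in knockout 1 and 0.12 and 0.11 CPM in knockout 2. RNA and footprints of this group thus stood near zero together in knockout 2. The group was singled out after its values were seen. No feature (0) showed the reverse, with at least 1 CPM in knockout 2 and at most 3 counts in wild type. Near-absence was not particular to knockout 2: with knockout 1 in its place, the rule was met by 15 features in 6 blocks. Of those 15, 8 had 0 counts in knockout 1, and 4 features in 3 blocks stood at 1 CPM or more in knockout 2.

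Transcript uc002mti.4 (listed length 531, table line 163033), which the naming rule gave as the deepest fall outside the stretch among changes beyond those of knockout 1, was one of the near-absent features. Its level was 5.77 and 6.13 CPM in wild type, 1.54 and 1.38 CPM in knockout 1 and 0 in both libraries of knockout 2. The 3 genotypes did not overlap, and knockout 1 stood between the others. Set against a floor of 3 counts per library (0.068 CPM), the level in knockout 2 was at least 87.5-fold lower than in wild type (edgeR adjusted p = 7.74e-15) and at least 21.5-fold lower than in knockout 1 (edgeR adjusted p = 2.73e-10). Knockout 1 itself had a log2 change of -2.03 ± 0.19 (SE) against wild type (edgeR adjusted p = 1.55e-08), so it shared the direction but not the size. Footprints of uc002mti.4 were 3.39 CPM in wild type, 0.75 and 1.19 CPM in knockout 1 and 0.17 and 0.32 CPM in knockout 2, where each library held 3 counts. All 5 features tested in its block of 20 lines, which can overlap each other, fell in knockout 2.

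The deepest fall inside the stretch under that rule was that of uc004dqf.4 (listed length 72, table line 86906), and knockout 1 shared it. It had 5.81 and 4.75 CPM in wild type and 0 counts in both libraries of knockout 2, which is at least 77.7-fold lower (edgeR adjusted p = 3.29e-14). In knockout 1 it had 0 and 1 counts (0 and 0.020 CPM; edgeR adjusted p = 6.49e-14 against wild type), and the difference between the knockouts did not pass (edgeR adjusted p = 0.57). All 4 features tested in the block of uc004dqf.4, which can overlap each other, fell in knockout 2. The 4 near-absent features at lines 86906 to 86914 held at most 1 count in knockout 1. The near-loss of this block was thus present in both knockouts, while the median change of the whole stretch in knockout 1 was 0.03.

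Among features that met the naming rule (at least 1 CPM in each library of the higher group, groups that do not overlap, listed length of at least 20), uc063aum.1 (listed length 335, table line 46803) had the highest rise beyond that of knockout 1. It stood at 0.80 and 0.65 CPM in wild type, 1.94 and 1.52 CPM in knockout 1 and 3.04 and 3.01 CPM in knockout 2. The levels of the 3 genotypes did not overlap. The log2 change was 2.05 ± 0.23 (SE) against wild type (edgeR adjusted p = 2.53e-07) and 0.82 ± 0.22 against knockout 1 (edgeR adjusted p = 0.017). Knockout 1 itself rose by 1.23 ± 0.25 (SE) against wild type (edgeR adjusted p = 0.0023), so it shared the direction but not the size. Footprints of uc063aum.1 followed the same order, with 0.60 CPM in wild type (5 counts), 2.34 and 2.61 CPM in knockout 1 and 4.44 and 4.21 CPM in knockout 2. All 11 features tested in its block rose in knockout 2, and 3 of them also differed from knockout 1. Features of 1 block can overlap, so these are not separate observations.

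Of features that met the same rule and rose in both knockouts without a difference between them that passed, uc002yld.3 (listed length 828, table line 176484) rose most in knockout 2. Its level was low, at 0.40 and 0.33 CPM in wild type (26 and 17 counts), 0.97 and 0.92 CPM in knockout 1 and 1.53 and 1.71 CPM in knockout 2. The log2 change of uc002yld.3 was 2.15 ± 0.30 (SE) in knockout 2 (edgeR adjusted p = 1.01e-05) and 1.36 ± 0.32 in knockout 1 (edgeR adjusted p = 0.010). The difference between the knockouts, 0.78 ± 0.27 (SE), did not pass (edgeR adjusted p = 0.086), although the knockout libraries did not overlap.

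Highly abundant transcripts were more often higher than lower in knockout 2. Among 1347 features with a mean of at least 100 CPM, RNA rose for 328 and fell for 86, with a median log2 change of 0.11. The same features had a median of 0.03 in knockout 1 against wild type and of 0.07 in the direct contrast of the knockouts. They took 41.8% and 42.7% of all CPM in the wild-type libraries, 43.4% and 42.7% in knockout 1 and 45.3% and 45.1% in knockout 2. At the other end, 221 of the 12980 features under 1 CPM rose and 447 fell, with a median of -0.02. Tests are more sensitive at higher counts, and the share of features called climbed from 5.15% under 1 CPM to 9.85%, 20.5% and 30.7% in the classes of 1 to 10, 10 to 100 and at least 100 CPM. In the most abundant class the count of higher features was 167 without wild-type replicate 1 and 182 without replicate 2 of knockout 2, against 80 and 62 lower, and 211 against 63 without replicate 2 of knockout 1.

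Among transcripts with a long listed length, more fell than rose in knockout 2. The files do not state the unit of this length; here it was taken to count codons of the coding sequence. In the class over 800, 1263 of 6732 features (18.8%) fell and 225 (3.34%) rose, where 6.40% of all features fell and 5.90% rose. Expressed against the average of the 3 genotypes, the class median was 0.10 and 0.05 on the log2 scale in the wild-type libraries, -0.01 and 0.02 in those of knockout 1 and -0.08 and -0.06 in those of knockout 2. The fitted median change against wild type was -0.15 in knockout 2, -0.07 in knockout 1 and -0.08 in the direct contrast of the knockouts, over a median of 0.00 for all features tested. The order of the genotypes held in every library, with knockout 1 between the others. Without wild-type replicate 1 the median was -0.12, with 811 lower and 160 higher, and the counts were 727 and 140 without replicate 1 of knockout 2 and 730 and 84 without its replicate 2. DESeq2 called 837 lower and 124 higher.

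The 3 classes up to 400 held more higher than lower calls, and the class above them more lower ones. In the class up to 100, 504 of 10922 features rose and 214 fell (median 0.06). In that of over 100 and up to 200, 1027 of 15584 rose and 520 fell (median 0.04), and in that of over 200 and up to 400, 987 of 12692 rose and 574 fell (median 0.04). The class of over 400 and up to 800 had 664 higher and 1122 lower of 11789 features (median -0.04). Outside the stretch the medians from the shortest to the longest class were 0.07, 0.04, 0.04, -0.04 and -0.15. With 1 feature per 20 lines they were 0.10, 0.09, 0.07, -0.02 and -0.15. The class over 800 had the lowest median in each abundance class. Among features of at least 100 CPM, the class over 800 had a median of -0.14 with 58 of 203 lower, and the class up to 100 had a median of 0.24 with 53 of 122 higher. Among features of 10 to 100 CPM the same medians were -0.15 and 0.12.

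**Figure D5:**
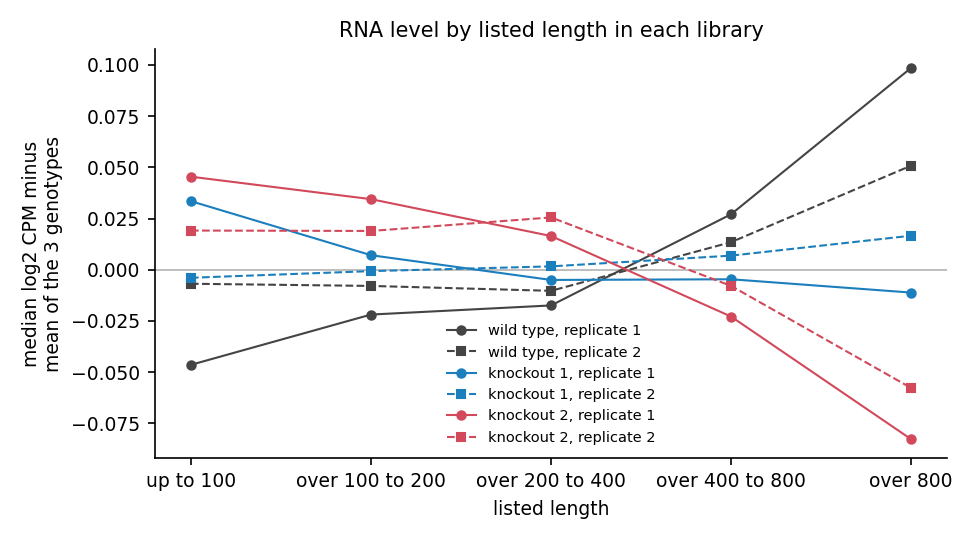
Median log2 CPM relative to the mean of the 3 genotypes (y axis) over the features of each listed-length class (x axis), 1 line per RNA library. In the class over 800 the wild-type libraries stand at 0.10 and 0.05 and those of knockout 2 at -0.08 and -0.06, with knockout 1 between them.

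Of the changes beyond those of knockout 1, the class over 800 held 379 lower and 59 higher features among its 6732, and outside the stretch 323 and 59 among 6646. From the shortest class to that of over 400 and up to 800, the counts were 55, 191, 199 and 379 lower and 113, 262, 304 and 180 higher. Over all features, 2.08% were lower and 1.59% higher in this way. Differences between the classes were not tested.

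Apart from the stretch, no window of 1000 lines had a median log2 change of knockout 2 beyond 0.23 in either direction, and 126 of 182 windows lay within 0.1 of zero. The lowest others were lines 170001 to 171000 (-0.23), 39001 to 40000 (-0.22) and 166001 to 167000 (-0.21), and knockout 1 had -0.11, -0.16 and -0.09 there. The highest were lines 154001 to 155000 (0.22), 160001 to 161000 (0.21), 155001 to 156000 (0.21), 169001 to 170000 (0.20) and 167001 to 168000 (0.20). Knockout 1 had 0.10, 0.09, 0.10, 0.03 and 0.04 in these. The medians of both knockout 2 libraries lay beyond those of both wild-type libraries in all of these windows. The windows were picked by their change between these same libraries, so that separation is no support for it.

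Shorter runs of neighbouring blocks also changed together. The longest run of consecutive blocks whose most abundant feature fell in knockout 2 was 24 blocks inside the stretch, and the longest elsewhere was 13 blocks, at lines 164981 to 165240. Its 87 features summed to 266.2 and 210.9 CPM in wild type, 185.7 and 189.9 CPM in knockout 1 and 144.6 and 113.8 CPM in knockout 2. Of these features 54 fell, with a median log2 change of -0.91, and 14 fell in knockout 1, with a median of -0.40, where 6.40% of all features fell in knockout 2 and 2.08% in knockout 1. The run was picked for its calls. Counts of 30 and 27 lower features remained without wild-type replicate 1 and without replicate 2 of knockout 2, DESeq2 gave 31, and 27 were called among features with a mean count of at least 50. The longest run in which knockout 2 was below knockout 1 was 31 blocks, at lines 85401 to 86020, and no such run elsewhere exceeded 4 blocks.

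The longest run of higher blocks in knockout 2 was 7 blocks, at lines 160321 to 160460. Its 57 features summed to 924.8 and 929.3 CPM in wild type, 1041 and 1027 CPM in knockout 1 and 1277 and 1242 CPM in knockout 2, and 36 of them rose against wild type and 20 also against knockout 1, where 5.90% and 1.59% of all features did. Another run of 7 blocks, at lines 77781 to 77920, stood higher in knockout 2 than in knockout 1. Its 55 features summed to 684.4 and 658.9 CPM in wild type, 625.7 and 646.4 CPM in knockout 1 and 876.8 and 862.8 CPM in knockout 2. Against wild type 24 of them rose in knockout 2, where 5.90% of all features did, with a median log2 change of 0.36 against -0.10 in knockout 1, and their median footprint change of knockout 2 against knockout 1 was 0.43. The count of 24 was 12 and 14 without replicates 1 and 2 of knockout 2 and 16 without replicate 2 of knockout 1, and DESeq2 gave 13. In the run at lines 160321 to 160460 the count of 36 was 20 without replicate 1 of knockout 2. These runs were picked after their values were seen, and lines next to each other can belong to 1 gene.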

How the data were processed

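Libraries were RNA made with an Illumina TruSeq preparation and footprints made with RNase I, per the labels' protocols. TopHat2 2.0.9, Bowtie2 2.1.0, CASAVA 1.8 and hg38 appear, without roles, per the submitters' processing notes. The counter, its strand setting and its handling of shared reads are not given in the sources used here. Each file deposited by the authors holds raw counts per transcript, without normalisation, beside a listed length of unstated unit. Of 182398 rows, 82937 had a count, and merging identical rows left 66016 features. Overlapping, antisense and paralogous transcripts could not be told apart.

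The test was edgeR's quasi-likelihood test (4.0.16, R 4.3.3, robust, two-sided) over all 6 RNA libraries, with TMM factors, at least 10 counts in at least 2 libraries and Benjamini-Hochberg adjustment over all features tested. The 5 footprint libraries were fitted likewise on their own, so wild type, with 1, was assumed to vary like the knockouts. SEs are the log2 change over the square root of F. Library medians used log2(CPM + 0.1). The fits were tested on simulated data. DESeq2 1.42.0 (no independent filtering) and limma-voom 3.58.1 were alternatives. Named transcripts needed an adjusted p under 0.05, groups that do not overlap, at least 1 CPM in each library of the higher group and a listed length of at least 20. The extremes of 4 classes were then taken: the deepest fall in the stretch, and outside it the deepest fall and highest rise beyond knockout 1 and the highest rise in both knockouts. The comparison, the stretch and the lists were chosen with earlier results of these data known.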

Additional observations from a re-analysis of the deposited data

Results flagged for a closer look

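Each result given here stood out because knockout 2 and knockout 1 differed in a direct test of their RNA (edgeR quasi-likelihood test, adjusted p under 0.05). In all, 2121 features (3.67% of the 57719 tested) differed in knockout 2 from wild type and from knockout 1 in the same direction. Of these, 325 lay in the stretch of 2000 table lines that ends with line 87000. In knockout 1, 104 were called the opposite way (1.46% of the 7100 called in knockout 2). For 64 of the 104, in 31 blocks, RNA was lower in knockout 2 (median log2 change -0.66) and higher in knockout 1 (0.58). For the other 40, in 14 blocks, it was higher in knockout 2 (0.68) and lower in knockout 1 (-1.13). Features of 1 block can overlap. Among the named transcripts, uc002mti.4 was lower in knockout 2 than in knockout 1 (edgeR adjusted p = 2.73e-10), and uc063aum.1 was higher (edgeR adjusted p = 0.0167).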

How the results depend on the processing

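The 7100 calls became 1080 with a fold change over 2 required in addition, 4311 with DESeq2 and 1873 with 1 feature per 20 lines. Outside the stretch the 6695 calls became 3947 and 1793, and the 2121 changes beyond those of knockout 1 became 1392 and 571, under the last 2 settings. With each RNA library left out in turn, these counts ranged from 3369 to 8263, 3024 to 7862 and 829 to 2745. The lone library of a genotype was then assumed to vary like the others. The median change of the class over 800 ranged from -0.18 to -0.12, moving by more than the replicate spread without wild-type replicate 1 (-0.12). The log2 ratio of the stretch was -0.62 over lines 85401 to 87200 (chosen after seeing the data) and -0.53 to -0.50 with libraries left out. Footprint calls between the knockouts were 706 with DESeq2 and 1557 to 4313 with libraries left out. Scaling by RLE or upper-quartile factors, limma-voom and the count filters kept the counts of 7100, 6695 and 2121 within 1.5 times. The replicate numbers are shared across genotypes but rep-to-rep differences correlated by -0.09, 0.22 and 0.08 between genotypes, so the numbers were not taken to pair libraries. With the replicate block, the counts were 8634, 8204 and 2693, the class median -0.15 and the footprint count 3713. Against wild type, the 4 named transcripts kept their direction in knockout 2 under every alternative in which they were tested. They passed in each of these that left no genotype with a lone library (highest adjusted p 1.5e-04, limma-voom). The contrast between the knockouts was not rerun for them. The placing of uc002mti.4 and uc063aum.1 beyond knockout 1 thus rests on the main fit. Depth limits features under 1 CPM, of which 5.15% were called.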
